A study of Mus musculus with 4 samples.

Results

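Transcripts of 8 MHC class I heavy chain genes, H2-K1, H2-D1, H2-Q4, H2-Q6, H2-Q7, H2-T22, H2-T23 and H2-M3, were examined in Ly49H+ NK cells of wild-type and TNFR2 KO mice during murine cytomegalovirus (MCMV) infection. The genes were taken by symbol from the 35798 named genes of the count table, and they were chosen with earlier results of the same 4 libraries known. Their difference between genotypes is therefore given as a description, with no p-value printed for any of them. With libraries scaled by TMM factors, 6 of the 8 genes had more transcripts in both TNFR2 KO libraries than in both wild-type libraries. H2-Q4 and H2-M3 did not, and 36.4% of all genes tested did. Scaling on NK lineage genes instead gave the 8 genes a median log2-fold change, TNFR2 KO over wild-type, of -0.08 in place of 0.52. On that scale 4 of the 8 had positive values, with H2-K1 and H2-T23 at only 0.01.

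Ly49H+ NK cells of wild-type donors carrying the CD45.1 allele and of TNFR2 KO donors carrying the CD45.2 allele were placed together in NSG mice, which were then infected with MCMV, and each donor population was sorted from the spleen on day 3.5 after infection. TNFR2 is the TNF receptor encoded by Tnfrsf1b, and Ly49H, encoded by Klra8, is an activating receptor for an MCMV protein. Each genotype had 2 libraries made from spleens pooled over 3 hosts, and replicate 1 of both genotypes shared a pool, as did replicate 2. The ages of donors and hosts were not given in the labels. All 4 libraries came from infected hosts, so none shows the level without infection. NSG mice lack T, B and NK cells of their own, keep myeloid cells, and carry the MHC haplotype of the NOD strain. The effects of genotype, CD45 allele and gate cannot be told apart, since each changed with the others, and with 2 pools per genotype every error and p-value measures only the spread between these pools.

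An MHC class I molecule is a heavy chain paired with beta-2 microglobulin (B2m) that holds a peptide at the cell surface. H2-K1 and H2-D1 encode the classical heavy chains, which present peptides to CD8 T cells and bind inhibitory Ly49 receptors on NK cells. The others are non-classical: the Q genes include those of Qa-2 (H2-Q6 and H2-Q7), H2-T23 encodes Qa-1, which presents signal peptides of other class I chains to the CD94 and NKG2 receptors, H2-T22 encodes a ligand of gamma-delta T cells, and H2-M3 presents formylated peptides. NK cells carry class I molecules themselves, and interferons and TNF are known to raise their transcription through NLRC5, interferon regulatory factors and NF-kB.

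All 8 genes lie on chromosome 17 in GRCm38 (GENCODE release M21). H2-K1 spans 33996017 to 34000347 on the minus strand. On the plus strand follow H2-D1 from 35262730 to 35267499, H2-Q4 from 35379617 to 35385290, H2-Q6 from 35424850 to 35430055 and H2-Q7 from 35439155 to 35443773. H2-T23 spans 36029773 to 36032855 and H2-T22 spans 36037128 to 36042747, both on the minus strand, and H2-M3 spans 37270220 to 37274484 on the plus strand. All 8 are annotated as protein coding.

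Promoter sequences are shown because the genes share control elements while their transcripts differed unequally between genotypes. They come from RefSeq (build GRCm38.p6), from 250 bases before to 50 bases after the first listed start, and all 8 genes matched. The stretches below read 5' to 3' along each gene, with 6 bases on either side. Capitals mark the NF-kB consensus and the interferon elements, AAGTGAAA and GAAANNGAAA, which read in these stretches as their reverse complements.
H2-K1 at chr17:34000424-34000464, minus strand: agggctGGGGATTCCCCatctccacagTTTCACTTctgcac
H2-D1 at chr17:35262917-35262957, plus strand: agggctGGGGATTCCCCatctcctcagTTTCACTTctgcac
H2-Q4 at chr17:35379437-35379477, plus strand: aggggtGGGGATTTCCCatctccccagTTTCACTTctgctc
H2-Q6 at chr17:35424671-35424711, plus strand: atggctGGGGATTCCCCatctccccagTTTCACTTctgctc
H2-Q7 at chr17:35439016-35439055, plus strand: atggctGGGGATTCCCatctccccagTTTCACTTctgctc
H2-T22 at chr17:36042918-36042961, minus strand: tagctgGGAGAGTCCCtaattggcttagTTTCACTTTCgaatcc
H2-T23 at chr17:36032810-36032831, minus strand: tactgcTTTCTCTTTCataaag
H2-M3 at chr17:37270102-37270146, plus strand: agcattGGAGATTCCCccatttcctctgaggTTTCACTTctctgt

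Motifs were searched on both strands. The NF-kB consensus was in 7 of the 8 promoters, all except that of H2-T23, against 4.51% of 32851 RefSeq promoters of the same length. The core AAGTGAAA was also in 7, all except that of H2-T23, against 1.6% of promoters. GAAANNGAAA was in those of H2-T22, where it overlaps AAGTGAAA, and H2-T23, against 3.44% of promoters. The X2 box core GATGAC, part of the module bound with NLRC5, was in 6 promoters (not H2-K1 or H2-T23) against 3303 of the 32851, and the Y box CCAATCA was in 7 (not H2-M3) against 7.82%. A match is only a description of the letters in this window. H2-D1, H2-Q4, H2-Q6, H2-Q7 and H2-T22 thus each carry 4 of these elements, the NF-kB consensus, AAGTGAAA, GATGAC and CCAATCA. The NF-kB letters differ among H2-Q4, H2-Q6 and H2-Q7.

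The promoters of H2-Q6 and H2-Q7 were the pair most alike, with 84.7% of 300 bases equal in a global alignment that allowed gaps, then H2-Q4 and H2-Q6 with 82%. H2-K1 and H2-D1 had 71.3% of bases equal. The windows are set by the listed starts, and the NF-kB letters begin at -111 in H2-K1 and at -171 in H2-D1. These percentages therefore also depend on where the starts are listed. The promoters of H2-T22, H2-T23 and H2-M3 shared 40.3% to 55.7% of bases with any other. Whole promoters are shown for H2-Q7, which had the largest log2-fold change, for H2-Q4, which overlapped between them, and for H2-D1. Capitals mark the NF-kB consensus, the AAGTGAAA core on the opposite strand, GATGAC and CCAATCA.
H2-Q7 promoter at chr17:35438905-35439204, plus strand: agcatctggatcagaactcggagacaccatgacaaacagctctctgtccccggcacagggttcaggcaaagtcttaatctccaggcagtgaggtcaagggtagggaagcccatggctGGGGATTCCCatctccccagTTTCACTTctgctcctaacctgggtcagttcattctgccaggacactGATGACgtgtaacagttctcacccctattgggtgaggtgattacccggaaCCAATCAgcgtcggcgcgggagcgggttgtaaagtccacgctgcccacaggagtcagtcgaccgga
H2-Q4 promoter at chr17:35379367-35379666, plus strand: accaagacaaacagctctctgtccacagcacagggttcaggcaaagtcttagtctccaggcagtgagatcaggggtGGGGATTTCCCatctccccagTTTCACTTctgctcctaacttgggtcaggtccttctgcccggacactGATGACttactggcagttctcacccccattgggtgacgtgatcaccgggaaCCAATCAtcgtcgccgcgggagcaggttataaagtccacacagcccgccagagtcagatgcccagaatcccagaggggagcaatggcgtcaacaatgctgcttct
H2-D1 promoter at chr17:35262844-35263143, plus strand: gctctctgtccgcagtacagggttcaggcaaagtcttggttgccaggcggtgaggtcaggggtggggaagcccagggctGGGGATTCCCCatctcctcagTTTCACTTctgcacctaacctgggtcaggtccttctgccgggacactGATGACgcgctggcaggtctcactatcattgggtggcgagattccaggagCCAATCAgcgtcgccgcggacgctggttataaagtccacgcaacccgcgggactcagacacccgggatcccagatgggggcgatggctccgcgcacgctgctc

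Libraries held 32713054 to 39543464 counts. CPM values are parts of 1000000 of the library total after scaling by edgeR's TMM factors, and each log2-fold change sets TNFR2 KO over wild-type. Tnfrsf1b, the targeted gene, had 265 and 269 CPM in wild-type and 55.1 and 58.6 CPM in TNFR2 KO libraries (log2-fold change -2.23, standard error 0.0352, adjusted p = 1.35e-13 in edgeR's quasi-likelihood test). Genes are said to be called when the adjusted p was under 0.05 and the log2-fold change exceeded 1 in size. Over the 13822 genes tested, the median log2-fold change was -0.00 with quartiles of -0.29 and 0.18. Scaling on 40 NK lineage genes in place of TMM moved that median to -0.61 and every gene with it, so a log2-fold change between 0 and about that size turns negative there, and directions are given on the TMM scale. The 12 NK cell markers summed to 16155 to 16236 CPM in wild-type and 29458 to 29698 CPM in TNFR2 KO libraries, and all 12 rose on the TMM scale, with a median log2-fold change of 0.82 (Gzma, 5831 and 5779 against 12386.5 and 12140.3 CPM). The wild-type libraries held more transcripts of other cells. The 22 macrophage or monocyte markers summed to 2800 to 2822 CPM against 1290 to 1312 CPM, with 19 called lower in TNFR2 KO (highest CPM: Lyz2, 771 and 778 against 114 and 110.4 CPM), while Vsig4 was at or near 0 in all libraries. On the same list Ccr2 (0.78) and Ly6c2 (0.26), which NK cells also express, had positive log2-fold changes and made up most of its sum in TNFR2 KO libraries. The 12 neutrophil or granulocyte precursor markers summed to 991 to 1010 CPM against 90.3 to 93.6 CPM, all 12 called lower (Mpo, 356 and 361 against 3.98 and 3.93 CPM), and the 12 dendritic cell or class II markers to 2181 to 2208 CPM against 1037 to 1062 CPM, with 6 called lower (Cd74, 907 and 926 against 78.4 and 75.3 CPM), 1 called higher (Itgax, which NK cells also express) and Cd209a near 0. Those called lower were mostly class II genes (Cd74, H2-Aa, H2-Ab1, H2-Eb1 and Ciita), with Clec9a at 1.63 and 1.52 CPM in wild-type libraries. The dendritic cell markers Flt3 (-1.26), Xcr1 (-0.96), Siglech (-0.45) and Zbtb46 (-0.04), all of low CPM, were not called. Itgax, at 882 and 908 CPM, made up most of the sum in TNFR2 KO libraries. Of 9 erythroid markers 8 were called lower (Hba-a1, 125 and 131 against 24.7 and 24.1 CPM). No T cell or B cell marker was called, but 6 of the 12 T cell markers were lower and 2 higher at an adjusted p under 0.05. Among T cell markers, Cd4 had the highest CPM in wild-type libraries (274 and 270 against 186 and 185 CPM, log2-fold change -0.56). Trbc1 had a log2-fold change of 0.55, and Trbc2 had 235 and 232 against 223 and 237 CPM. Ighm was the highest B cell marker (36.8 and 37.9 against 48.1 and 45.6 CPM), and Ms4a1 and Pax5 were near 0.

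H2-K1, a classical heavy chain, had 2526 and 2566 CPM in wild-type and 3895 and 3906 CPM in TNFR2 KO libraries. Both TNFR2 KO libraries were higher, and the gap was many times the spread between duplicates. The log2-fold change was 0.62 (standard error 0.0184). H2-D1, the other classical heavy chain, had 3199 and 3295 CPM in wild-type and 3826 and 3830.0 CPM in TNFR2 KO NK cells. The genotypes did not overlap here either, but the log2-fold change was smaller, at 0.24 (standard error 0.0196). In the stretches shown above, the H2-D1 promoter has the same NF-kB and AAGTGAAA letters as that of H2-K1. In bulk RNA, fewer cells of a type and less RNA per cell cannot be told apart.

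Among the Q genes, H2-Q7 had 620.1 and 625 CPM in wild-type and 1572 and 1588 CPM in TNFR2 KO libraries. The duplicates nearly coincided and the genotypes stood far apart, with the largest log2-fold change of the 8 genes, 1.34 (standard error 0.0217). H2-Q6 had 376 and 369.5 CPM in wild-type and 717 and 726 CPM in TNFR2 KO libraries. Its genotypes also stood clear of each other, with a log2-fold change of 0.95 (standard error 0.0241). H2-Q4, whose protein is also a non-classical heavy chain, had 485 and 496 CPM in wild-type and 481 and 489.5 CPM in TNFR2 KO libraries. Its genotypes overlapped, and its log2-fold change was -0.02 (standard error 0.0249). The direction for H2-Q4 turned with single libraries, to 0.01 without wild-type replicate 2 and to 0.01 without TNFR2 KO replicate 1.

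H2-T23, which encodes Qa-1, had 335 and 339.6 CPM in wild-type and 511 and 519 CPM in TNFR2 KO libraries. Both TNFR2 KO values were higher, and the log2-fold change was 0.61 (standard error 0.0246), close to that of H2-K1. H2-T22 had 252 and 257 CPM in wild-type and 345 and 341 CPM in TNFR2 KO libraries. It was higher in both TNFR2 KO libraries as well, with a log2-fold change of 0.43 (standard error 0.026). H2-M3, which presents formylated peptides, had 52.8 and 54.8 CPM in wild-type and 51.9 and 55.3 CPM in TNFR2 KO libraries. These values overlapped, the log2-fold change was -0.01 (standard error 0.0478), and it was 0.03 without wild-type replicate 2 and 0.05 without TNFR2 KO replicate 1.

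**Figure D1:**
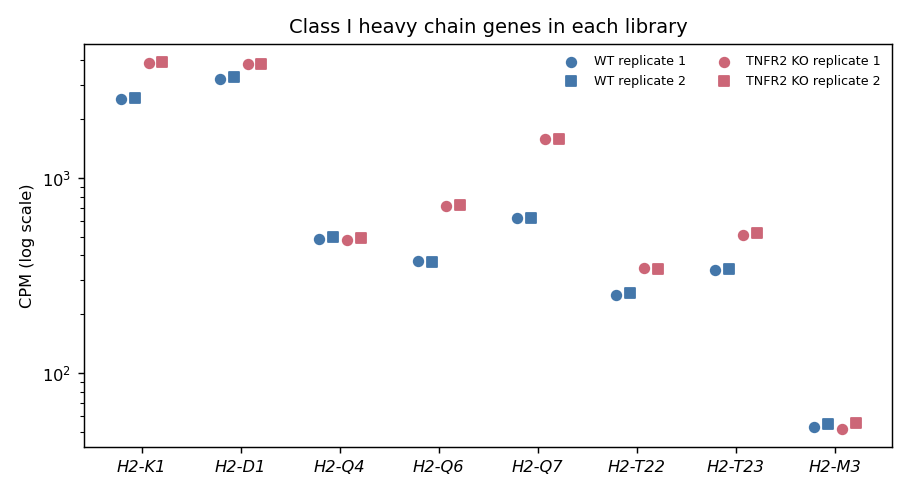
Level of each of the 8 class I heavy chain genes in each library, as TMM-scaled CPM on a log axis, with circles for replicate 1 and squares for replicate 2. H2-Q7 sits near 620.1 and 625 CPM in wild-type and 1572 and 1588 CPM in TNFR2 KO, while H2-Q4 and H2-M3 overlap between the genotypes.

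Over the 8 genes, which were chosen from this contrast, both TNFR2 KO libraries lay above both wild-type libraries for 6, where 36.4% of all genes tested did, and below them for 0, where 37.7% did. Of the 8, 6 had an adjusted p under 0.05 and were higher, against 24.2% of all genes, and 0 were lower, against 26.2%. H2-Q7 was the 1 gene called higher, against 1.56% of all genes, and 0 were called lower, against 11.8%. Since the choice used these values, nothing is read from these counts. The median log2-fold change of the 8 was 0.52, with a range from -0.02 to 1.34, and the pools taken one at a time gave medians of 0.53 and 0.51.

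The summed level of the 8 genes was 7924 ± 111 CPM (SD, n = 2) in wild-type and 11427 ± 40.1 CPM (SD, n = 2) in TNFR2 KO NK cells, a log2 ratio of 0.53. Without scaling, they held 0.801% and 0.817% of all counts in the wild-type libraries and 1.12% and 1.12% in the TNFR2 KO libraries, a log2 ratio of 0.47. The sum was higher in TNFR2 KO under both measures. NK lineage scaling moved the median of the 8 genes to -0.08. On that scale H2-Q7 (0.74) and H2-Q6 (0.35) were still higher in TNFR2 KO, H2-K1 (0.01) and H2-T23 (0.01) were near 0, and H2-D1 (-0.37), H2-T22 (-0.17), H2-Q4 (-0.62) and H2-M3 (-0.61) were lower. Relative to the median of all genes, the median of the 8 was 0.525 higher on the log2 scale under either scaling. A change of scaling shifts every gene alike, so it cannot alter this gap, and nothing is read from its being equal. The part of other cells' RNA in these differences was not tested.

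**Figure D2:**
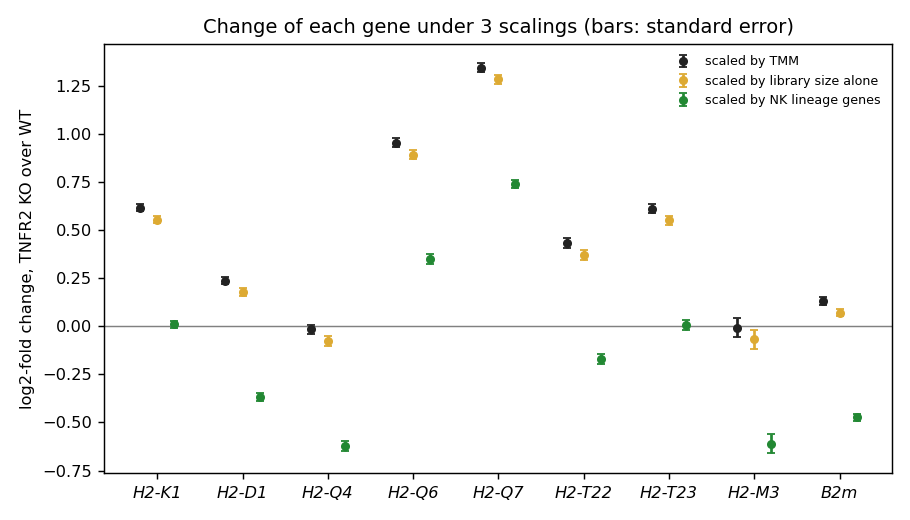
Change of each heavy chain gene and of B2m, as the log2-fold change with wild-type as the base, under 3 ways of scaling the libraries, with bars for the standard error of edgeR's fit. NK lineage scaling moves every gene down together, so that H2-Q7 falls from 1.34 to 0.74 and H2-D1 passes from 0.24 to -0.37, while the order of the genes is kept.

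The share of each gene in the summed counts of the 8 needs no scaling between libraries. H2-Q7 made up 7.85% ± 0.0708 (SD, n = 2) of the sum in wild-type and 13.8% ± 0.0521 (SD, n = 2) in TNFR2 KO libraries, and H2-Q6 made up 4.70% ± 0.122 and 6.32% ± 0.0315. H2-D1 made up 41.0% ± 0.282 in wild-type and 33.5% ± 0.0918 in TNFR2 KO libraries. H2-K1 made up 32.1% ± 0.0933 and 34.1% ± 0.0481. H2-Q4 went from 6.19% to 4.25% and H2-M3 from 0.679% to 0.469%. H2-T23, at 4.26% and 4.51%, and H2-T22, at 3.21% and 3.00%, moved little. For all 8 genes the shares in the TNFR2 KO libraries lay outside those in the wild-type libraries. As CPM, both TNFR2 KO libraries lay above both wild-type libraries for 36.4% of all genes tested and below them for 37.7%. The shares are also parts of the same sum and so depend on each other, and nothing is read from this count.

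**Figure D3:**
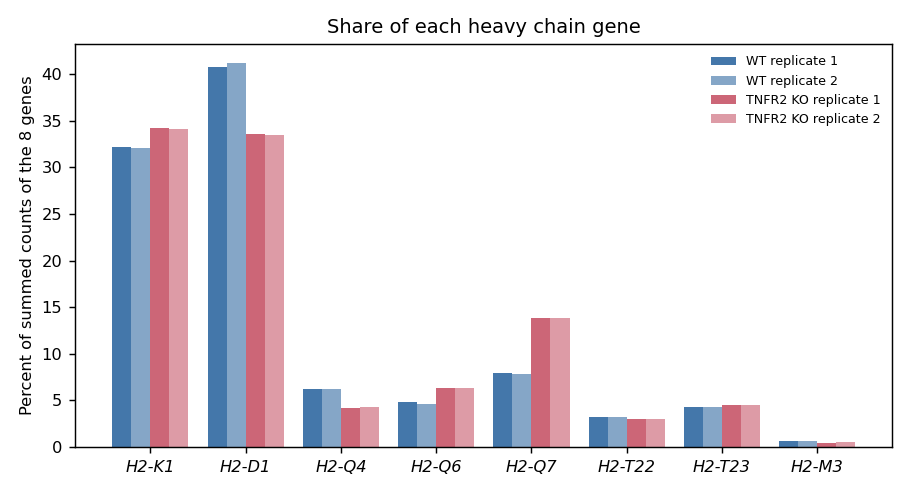
Share of each heavy chain gene in the summed counts of the 8 genes, in percent, with 1 bar per library. H2-D1 falls from 41.0% to 33.5% and H2-Q7 grows from 7.85% to 13.8% between the genotype means, and the duplicates are nearly level.

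Levels were set in order per kilobase of transcript, since counts also scale with length, using the longest GENCODE transcript of each. In wild-type NK cells the order was H2-D1 (1545 ± 32.3 CPM per kb, SD, n = 2), H2-K1 (1359 ± 15.1), H2-Q4 (189 ± 3.16), H2-Q6 (179 ± 2.14), H2-Q7 (148 ± 0.740), H2-T23 (128 ± 1.24), H2-T22 (83.0 ± 1.12) and H2-M3 (37.4 ± 0.947). No neighbours in this order overlapped between libraries. In TNFR2 KO NK cells it was H2-K1 (2081 ± 4.38 CPM per kb), H2-D1 (1821 ± 1.403), H2-Q7 (375 ± 2.73), H2-Q6 (346 ± 2.94), H2-T23 (195 ± 2.16), H2-Q4 (187 ± 2.31), H2-T22 (112 ± 0.924) and H2-M3 (37.3 ± 1.71), again without overlap. The order rests on the length used. With the mean transcript length, H2-D1 was above H2-K1 in both genotypes, at 3593 and 2525 CPM per kb in wild-type and 4236 and 3868 CPM per kb in TNFR2 KO. With that length the order of H2-K1 and H2-D1 therefore did not differ between genotypes. With the longest protein-coding transcript, only H2-T22 and H2-M3 kept their rank in both genotypes, H2-K1 (1560 and 1585 CPM per kb) and H2-D1 (1522 and 1567 CPM per kb) overlapped in wild-type, and H2-Q7 had rank 3 in both genotypes, at 409 and 1037 CPM per kb.

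The 8 genes resemble each other, which bears on counts assigned by short matches. Of the 31-base stretches in the transcripts of H2-T22, 51% also occur in another gene, and 47.2% occur in H2-T10. The share was 50.3% for H2-Q6, 39.1% for H2-Q7, 38.4% for H2-Q4, 26.7% for H2-D1, 24.5% for H2-T23, 22.8% for H2-K1 and 4.62% for H2-M3. H2-Q4 shared most with H2-Q6, 19.5% of its stretches, and H2-Q7 shared most with H2-Q10, 22.4%. Counts of these genes are therefore uncertain where reads could be split between copies. The Q genes H2-Q8 and H2-Q9 had no row in the count table, and their stretches were not compared. Summing each gene with its closest partner gave log2-fold changes of 0.42 for H2-K1 with H2-D1, 0.48 for H2-Q4 with H2-Q6, 1.25 for H2-Q7 with H2-Q10, 0.45 for H2-T22 with H2-T10, 0.52 for H2-T23 with H2-T-ps and -0.26 for H2-M3 with H2-T24. The sum with H2-Q7 had the largest log2-fold change.

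B2m, the light chain shared by all heavy chains and the gene of highest CPM on its list, had 2926 and 2918 CPM in wild-type and 3239 and 3159 CPM in TNFR2 KO libraries. It rose by less than most heavy chain genes (log2-fold change 0.13, standard error 0.0194, adjusted p = 0.000124 in edgeR's test), and it had a log2-fold change of -0.47 under NK lineage scaling. The summed heavy chain counts were 268% and 274% of the B2m count in wild-type and 352% and 363% in TNFR2 KO libraries. This ratio needs no scaling and was higher in both TNFR2 KO libraries, a log2 ratio of 0.40. Relative to B2m, H2-Q7 differed by 1.21 on the log2 scale, H2-Q6 by 0.82, H2-K1 by 0.48, H2-T23 by 0.48, H2-T22 by 0.30 and H2-D1 by 0.11, whereas H2-Q4 differed by -0.15 and H2-M3 by -0.14.

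The list of 14 genes for the light chain, peptide loading and the immunoproteasome did not rise with the heavy chains. None was called in edgeR's test (0 higher and 0 lower), B2m alone was higher at an adjusted p under 0.05, 9 were lower, and their log2-fold changes ran from -0.32 to 0.13 with a median of -0.11. Over all genes tested, 1.56% were called higher and 11.8% lower, and 24.2% were higher and 26.2% lower at an adjusted p under 0.05. Tap1, which carries peptides into the endoplasmic reticulum, had 576 and 571 CPM in wild-type and 563 and 561 CPM in TNFR2 KO libraries (log2-fold change -0.03, adjusted p = 0.313 in edgeR's test). Calr, the chaperone calreticulin, fell by 0.31 on the log2 scale and Psme2, an activator subunit of the proteasome, fell by 0.32 on it.

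The 40 other class I and class I-like heavy chains on the list included 28 with a row in the table, of which 15 were tested and 8 had no count in any library. In edgeR's test 0 were called higher and 8 lower, and without the size threshold 4 were higher and 11 lower, with a median log2-fold change of -1.37. The shares over all genes tested were 1.56% and 11.8%, and 24.2% and 26.2%, in the same order. H2-Q2, which had the highest CPM of the 8 called lower, was at 35.7 and 36.2 CPM in wild-type and at 4.21 and 3.06 CPM in TNFR2 KO libraries (log2-fold change -3.29, standard error 0.105). The other 7 called lower were H2-Q1 (-3.15), H2-Bl (-3.48), H2-T3 (-3.01), H2-M2 (-3.23), Hfe (-2.49), which takes part in iron handling, Fcgrt (-1.37), the neonatal Fc receptor, and Procr (-4.14), the endothelial protein C receptor. All 8 had fewer transcripts in TNFR2 KO together with most macrophage markers, the class II genes and the neutrophil markers above, and the part of other cells was not tested.

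The 4 other heavy chains that were higher were H2-Q5, H2-Q10, H2-T10 and Mr1, which presents vitamin metabolites. H2-Q5 and H2-T10, like H2-Bl above, are annotated as polymorphic pseudogenes. H2-Q5 had the highest CPM on the list, with 88.3 and 87.3 CPM in wild-type and 139 and 138 CPM in TNFR2 KO libraries (log2-fold change 0.66, standard error 0.0324, adjusted p = 5.13e-09 in edgeR's test). Of the stretches of H2-Q5, 57.8% occur in other genes, and for H2-T10 the share was 50.7%, so their values are not independent of those of the Q and T genes above. The 28 genes with a row summed to 433 and 428 CPM in wild-type and 399 and 399 CPM in TNFR2 KO libraries.

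**Figure D4:**
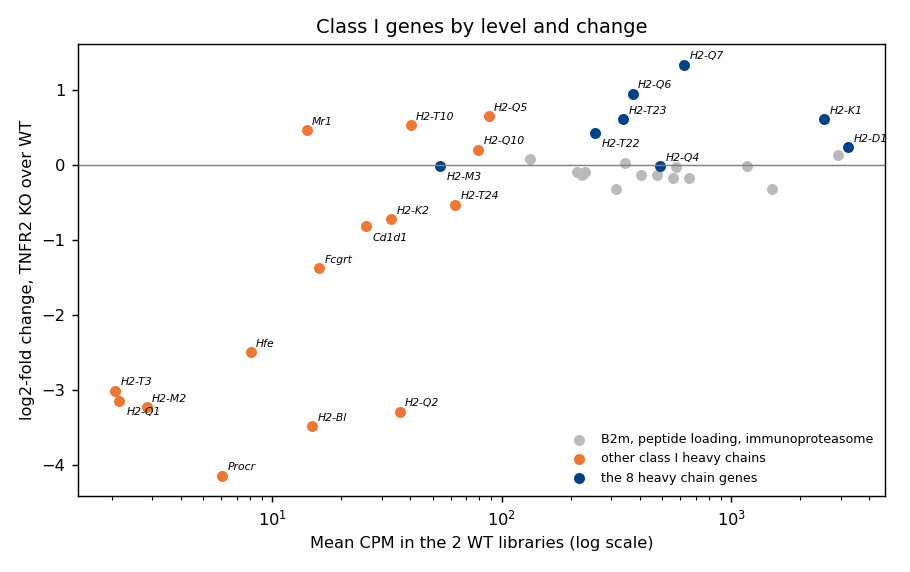
Change of each tested class I gene, as its log2-fold change between genotypes, against its mean level in the wild-type libraries in CPM on a log axis. The 8 heavy chain genes lie between -0.02 and 1.34, the 8 other heavy chains called lower lie between -4.14 and -1.37 at a mean of 36.0 CPM or less, and the light chain and loading genes stay between -0.32 and 0.13.

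Of 20 regulators of class I transcription, 0 were called higher and 1 was called lower in edgeR's test, and at an adjusted p under 0.05 alone 9 were higher and 6 lower, with a median log2-fold change of -0.01. Among all genes tested these shares were 1.56% and 11.8%, and 24.2% and 26.2%, in the same order. Nlrc5, the transactivator of class I genes, had 332 and 323 CPM in wild-type and 369 and 375 CPM in TNFR2 KO libraries (log2-fold change 0.18, adjusted p = 8.8e-05 in edgeR's test). Irf1, an interferon regulatory factor, fell by 0.30 and Stat2, which transmits type I interferon signals, fell by 0.63 on the log2 scale. Nfkb1, an NF-kB subunit, had 402 and 399 CPM in wild-type and 400.1 and 402 CPM in TNFR2 KO libraries. Rela, another NF-kB subunit, had 109 and 108 CPM in wild-type and 118 and 128 CPM in TNFR2 KO libraries (log2-fold change 0.18, adjusted p = 0.00247 in edgeR's test).

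The chains of the interferon-gamma receptor differed in opposite directions. Ifngr1 had 336 and 340.1 CPM in wild-type and 494 and 504 CPM in TNFR2 KO libraries (log2-fold change 0.56, adjusted p = 1.87e-09 in edgeR's test). Ifngr2, the regulator called lower, had 25.1 and 24.1 CPM in wild-type and 3.59 and 3.65 CPM in TNFR2 KO libraries (log2-fold change -2.76, standard error 0.0961). The macrophage or monocyte markers had a median log2-fold change of -2.89 and the NK cell markers one of 0.82, and their part in either value was not tested.

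The list of 15 receptors holds the Ly49 and CD94/NKG2 families and other receptors, most of which bind class I proteins. Klra8 (Ly49H), which was a sort marker and binds a viral protein, and Lilrb4a, which is not an established class I receptor, were also on it. Of the 15, 8 were called higher and 2 lower in edgeR's test, 11 were higher and 3 lower at an adjusted p under 0.05, and the median log2-fold change was 1.05. For all genes tested the shares were 1.56% and 11.8%, and 24.2% and 26.2%, in the same order. Klra7, an inhibitory Ly49 receptor and the gene of highest CPM on the list, had 419.6 and 422 CPM in wild-type and 963 and 941 CPM in TNFR2 KO libraries (log2-fold change 1.18, standard error 0.0238). The others called higher were Klra3 (1.15), Klra9 (1.20), Klra4 (1.35), Klra8 (1.24), Klrd1 (1.07), Klrc1 (1.05) and Klrc2 (1.06). Klrd1, Klrc1 and Klrc2 encode CD94 and its NKG2 partners, the receptors for the Qa-1 molecule of H2-T23. The NK cell markers above moved with them, and the part of cell composition was not tested. Under NK lineage scaling 0 receptors were called higher, and Klra4 (0.75) and Klra7 (0.57) had smaller positive values. Without TNFR2 KO replicate 1, Klrc1 had a log2-fold change of 0.9999 and was not called, and with library size alone Klrc1 (0.994) and Klrc2 (0.997) were not called. Klra genes are near copies of one another, and their counts are uncertain for the same reason as those of the heavy chains.

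Pirb and Lilrb4a were the receptors called lower. Pirb, an inhibitory receptor for class I on myeloid and B cells, had 91.5 and 92.7 CPM in wild-type and 10.08 and 9.71 CPM in TNFR2 KO libraries (log2-fold change -3.22, standard error 0.0532). Lilrb4a had 257 and 248 CPM in wild-type and 106 and 105 CPM in TNFR2 KO libraries (log2-fold change -1.26). Csf1r, a macrophage marker, had 254 and 255 CPM in wild-type and 27.4 and 26.7 CPM in TNFR2 KO libraries, the same direction as Pirb.

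The genes whose values over the 4 libraries ran closest to the summed heavy chains were found among 8755 genes averaging 10 CPM or more, by the distance between log2 CPM values centred on each gene's mean. They were Sesn3 (distance 0.0185), a sestrin, Klhl25 (0.0186) and Rnf167 (0.0268). Sesn3 had 108 and 112 CPM in wild-type and 159 and 157 CPM in TNFR2 KO libraries. With 4 libraries in 2 groups, the distance is set mainly by the difference between genotypes.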

How the data were processed

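RNA of Ly49H+ NK cells was measured in 4 poly-A selected, stranded libraries read as paired ends. The authors trimmed reads with Trimmomatic 1.4, assigned them to mm10 transcripts with Kallisto 0.46.1, summed them per gene with Tximport and deposited these estimated counts (expected counts) by gene symbol, not scaled between libraries. The transcript annotation was not given in the sources used here. Counts were rounded to whole numbers. A row without a gene name, 0.0559% to 0.0728% of counts, was left out. Low counts were removed with edgeR's filterByExpr, which kept 13822 genes and all 8 heavy chain genes, and libraries were scaled by TMM factors.

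Genes were tested with edgeR 4.0.16 (quasi-likelihood, genotype as the only term, R 4.3.3) with Benjamini-Hochberg adjustment over all genes tested, and every adjusted p comes from that test. The steps were tested on simulated data. Members and lists were chosen with earlier results of these data known, so no p-value of a single member is printed. Counts of members that passed a threshold are set beside the shares of all genes, and nothing is read from them. With 2 libraries against 2, an exact permutation test cannot give a two-sided p under 0.333. Duplicates differed by more than sampling noise (mean chi-square per gene 3.29 in wild-type and 3.49 in TNFR2 KO), and the biological coefficient of variation was 3.33%. Per the labels, same-numbered libraries share a pool of spleens, which pairs them, and their deviations from the genotype means correlated at 0.0243 over 13822 genes.

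Positions, lengths and 31-base stretches came from GENCODE M21 (GRCm38), standing in for the authors' annotation, and promoters from RefSeq (GRCm38.p6). Named were the 8 genes, Tnfrsf1b, genes of the 4 class I lists that passed both thresholds or had the highest CPM of their list, the marker of highest CPM of each cell type, and the 3 genes nearest to the summed members. A gene that this rule names is not reported here. Tap1, Calr, Psme2, H2-Q10, H2-T10, Mr1, Nlrc5, Irf1, Stat2, Nfkb1, Ifngr1, Itgax, Ccr2, Ly6c2, Vsig4, Cd209a, Ms4a1, Pax5 and Csf1r were added to these with their values known. So were H2-Aa, H2-Ab1, H2-Eb1, Ciita, Clec9a, Flt3, Xcr1, Siglech, Zbtb46, Cd4, Trbc1 and Rela. The alternatives were upper-quartile scaling, DESeq2 size factors, library sizes without factors, scaling on 40 NK lineage genes, the DESeq2 1.42.0 test, no filter, a mean of at least 10 CPM, a replicate block, each library left out, mean transcript length and sums with near copies. The longest protein-coding transcript was added after seeing the data.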

Additional observations from a re-analysis of the deposited data

How the results depend on the processing

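Scaling on NK lineage genes changed most: the summed log2-fold change of the 8 genes became -0.076 and their median -0.083, with H2-D1 at -0.37, H2-T22 at -0.17 and B2m at -0.47. Called genes went to 48 higher and 2849 lower (98.3% lower, against 88.3%), members called higher to 0, receptors called higher to 0 and regulators called lower to 3. This scaling shifts all genes alike. With library size alone the sum was 0.47 and the median 0.46. Keeping genes averaging 10 CPM or more (8765 tested) gave 0.49 and 0.49, with 56 genes called higher, 424 lower and 2 other heavy chains lower, as fewer genes were tested. H2-M3 was 0.0020 with upper-quartile scaling, 0.028 without wild-type replicate 2 and 0.051 without TNFR2 KO replicate 1, from -0.048 to 0.051 over all 4 libraries left out. H2-Q4 was 0.0097 and 0.0072 without the same libraries in turn, from -0.025 to 0.0097 over all 4, and 0.48 when summed with H2-Q6. Leaving out 1 library at a time, the sum ran from 0.52 to 0.55 and the median from 0.52 to 0.54. With the longest protein-coding transcript, 2 of 8 genes kept their ranks in level in wild-type. In TNFR2 KO, H2-K1, H2-D1, H2-Q7 and H2-Q4 kept theirs as well, while H2-Q6 and H2-T23 did not. The DESeq2 test called 157 genes higher and 1446 lower. The replicate block, pairing libraries of 1 pool, gave a member median of 0.52 and called 214 genes higher and 1616 lower. The block changed no other call among the counts of each list. Genes of a few CPM, such as H2-T3 and H2-Q1, rest on the fewest counts.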
